A study of Homo sapiens with 4 samples.

Results

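The genes described here are the human long intergenic noncoding RNA genes whose approved symbol is LINC followed by a number, in HCT116 cells with and without the delivered transcription factor FOXD2. They were selected on their symbol and on a level of at least 10 expected counts in each of both libraries of one group. This rule left 144 of the 2275 LINC genes in the tables, which hold 60683 genes in all. HCT116 is an established human colorectal carcinoma line. All cells compared were stably transduced with a pSin lentivirus and kept in puromycin, the agent that selects for the vector. The 2 empty vector libraries came from cells given the virus without an insert, and the 2 FOXD2 libraries from cells given the virus with the whole FOXD2 coding sequence. The labels do not say whether selected cells were a pool or a single clone, nor whether libraries of a group came from separate cultures, so the spread behind each p-value may be technical only.

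A LINC symbol is a numbered placeholder for a noncoding transcript that lies between protein-coding genes and had no function-based name when it was catalogued. Most such RNAs are made by RNA polymerase II, capped, spliced and polyadenylated like mRNAs but not translated. Many are transcribed next to enhancers or divergently from the promoter of a coding gene, stay in the nucleus, and are short-lived because the nuclear exosome degrades them. FOXD2 belongs to the forkhead family, whose DNA-binding domain recognises a core such as TGTTTAC. The comparison addresses which of these noncoding genes changed in level when FOXD2 was present.

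The rule read no sequence, and promoters are given for 5 genes whose values are described further on. Each line holds 250 bases before to 50 bases after the RefSeq start (GRCh38.p14), 5′ to 3′ on the strand of the gene. Capitals mark the forkhead core, searched as TGTTTAC or TGTTTGC on both strands. LINC00511 and LINC00857 are shown because they rose and are among the better known genes of the set, LINC00887 because nearly all of its counts were in the FOXD2 libraries, and LINC01270 and LINC00339 because they fell and hold a core. These 5 were chosen after their values and motifs were seen, and 4 of them hold a core, a larger share than in the whole set. LINC00623 and LINC02210 also fell, have a RefSeq promoter and hold none. The positions are chr17:72640423-72640722 (minus strand), chr10:80207460-80207759 (plus), chr3:194312755-194313054 (minus), chr20:50292470-50292769 (plus) and chr1:22024941-22025240 (plus), in the order of the lines.
LINC00511: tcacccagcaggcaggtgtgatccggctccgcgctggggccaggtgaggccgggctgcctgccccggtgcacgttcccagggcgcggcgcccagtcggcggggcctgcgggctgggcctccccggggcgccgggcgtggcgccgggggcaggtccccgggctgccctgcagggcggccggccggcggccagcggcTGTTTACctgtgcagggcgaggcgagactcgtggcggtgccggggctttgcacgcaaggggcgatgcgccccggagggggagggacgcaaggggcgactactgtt
LINC00857: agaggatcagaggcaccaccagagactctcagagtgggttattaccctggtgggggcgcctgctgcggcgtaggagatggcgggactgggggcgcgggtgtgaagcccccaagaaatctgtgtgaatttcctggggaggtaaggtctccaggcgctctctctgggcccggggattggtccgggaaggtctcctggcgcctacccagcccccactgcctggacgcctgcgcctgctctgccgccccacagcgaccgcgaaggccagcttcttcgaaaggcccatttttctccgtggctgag
LINC00887: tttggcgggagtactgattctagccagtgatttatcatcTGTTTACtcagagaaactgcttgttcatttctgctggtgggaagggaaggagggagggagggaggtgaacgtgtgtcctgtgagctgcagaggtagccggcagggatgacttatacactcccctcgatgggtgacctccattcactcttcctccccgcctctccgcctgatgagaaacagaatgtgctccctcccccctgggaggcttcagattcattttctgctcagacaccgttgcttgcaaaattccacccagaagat
LINC01270: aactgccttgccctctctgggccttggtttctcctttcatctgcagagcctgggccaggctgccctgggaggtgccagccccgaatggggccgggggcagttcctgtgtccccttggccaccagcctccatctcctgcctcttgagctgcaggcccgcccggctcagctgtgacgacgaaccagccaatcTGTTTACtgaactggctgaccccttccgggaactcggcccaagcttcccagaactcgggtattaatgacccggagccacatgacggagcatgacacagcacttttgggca
LINC00339: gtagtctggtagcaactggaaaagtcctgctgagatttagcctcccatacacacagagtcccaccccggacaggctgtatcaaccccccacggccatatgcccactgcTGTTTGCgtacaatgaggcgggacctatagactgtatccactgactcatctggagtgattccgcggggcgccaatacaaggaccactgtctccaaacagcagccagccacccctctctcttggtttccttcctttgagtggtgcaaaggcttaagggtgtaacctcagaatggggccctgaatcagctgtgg

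The core TGTTTAC began 55 bases upstream of the start of LINC00511, 211 bases upstream of LINC00887 and 60 bases upstream of LINC01270. TGTTTGC began 142 bases upstream of LINC00339, whose RefSeq start lies 633 bases from its start in GENCODE 29. No forkhead core was found in the window of LINC00857. A RefSeq promoter was matched for 97 of the 144 genes, and for 76 of the 96 with a GENCODE 29 position the 2 annotations place the start within 1000 bases of each other. A forkhead core was present in 9 of the 97 promoters (9.28%), against 7.15% of 27305 promoters of all genes and 9.38% of 1578 LINC promoters. Among genes with at least 10 counts in all 4 libraries it was present in 1 of 20 promoters of genes that rose, 2 of 4 of genes that fell and 4 of 48 of the others. The AP-1 motif TGANTCA, where N is any base, was in 11.3% of the 97 promoters, 7.76% of all and 13.8% of LINC promoters. TATAAA was in 12.4%, 12% and 16.3% of them, CCAAT in 50.5%, 35.7% and 36%, and GGGCGG in 51.5%, 44.6% and 18.3%, each on either strand. Promoters of the genes kept by the count rule were thus unlike those of LINC genes at large, with a median GC content of 59.3% against 47.7%. A match is a description of the letters and does not show binding.

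Of the 144 genes, 105 had at least 10 counts in all 4 libraries, 29 met the rule through the FOXD2 libraries only and 10 through the empty vector libraries only. A further 1683 LINC genes had no count in any library, and 448 had counts but missed the rule. Just inside the limit, LINC00992, LINC01135, LINC01807, LINC02026 and LINC02449 had 10 counts in the lower library of their qualifying group. Just outside it, LINC01730 had 9.82, and LINC00910, LINC01348, LINC02019, LINC02313 and LINC02600 had 9. GENCODE 29 gives a position to 142 genes, on 23 chromosomes, with a median span of 12185 bases (range 1144 to 477538). It places 110 of them in the class lincRNA and 13 in processed transcript. The label intergenic did not hold for all, since 14 overlap a protein-coding gene. GENCODE 29 classes 5 as antisense, 2 as protein-coding, 7 as transcribed unprocessed pseudogenes and 1 as a transcribed unitary pseudogene. Only 65 overlap no other gene of any class. A single exon is annotated for 17 genes and more for 125.

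Libraries held between 14231325 and 15535839 expected counts, of which 9523 to 13682 fell on the 144 genes. FOXD2, the check of the labels, had 49 and 42 counts with empty vector and 8195 and 7011 with the delivered gene (log2 fold change 7.32, SE 0.10, edgeR adjusted p = 6.5e-50). The epithelial markers EPCAM, CDH1, KRT8 and KRT18 were present in every library, while the intestinal markers VIL1 and CDH17 were at or near 0. CPM are counts scaled to library size. The 8 markers of colon epithelium summed to 3532 and 3658 CPM with empty vector and 6430 and 6115 with FOXD2, and of the 6 tested 4 were higher and 1 lower. The summed level of the 7 fibroblast markers was 13.3 and 15.3 CPM with empty vector and 41.5 and 41.0 with FOXD2, with DCN, LUM and COL1A2 at 0 in all 4. The summed level of the 8 blood and endothelium markers was 5.44 and 6.49 against 44.8 and 37.1 CPM, most of it CD68, with PTPRC and CD3E at 0. The 5 packaging cell markers summed to 69.4 and 71.9 against 98.4 and 88.4 CPM.

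LINC RNAs took a larger share of the FOXD2 libraries. The 144 genes together had 681.2 and 694.3 CPM with empty vector and 879.1 and 928.9 CPM with FOXD2, a rise in the mean of 216.2 CPM (687.7 ± 9.30 to 904.0 ± 35.2, SD, n = 2 each). The groups did not overlap, but 2 against 2 libraries cannot give an exact permutation p below 0.33. LINC03061 alone supplied much of the difference, which was 134.8 CPM without it. On TPM, the authors' measure scaled by gene length, the sums were 553.8 and 554.8 against 647.9 and 684.8. Part of such a sum is fixed by the rule, since 29 genes entered through the FOXD2 libraries and 10 through the others. The 105 genes present in all libraries summed to 655.6 and 669.1 against 833.8 and 880.1 CPM.

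Other classes moved beside them. All long noncoding RNAs held 0.688% and 0.719% of counts with empty vector and 0.956% and 0.995% with FOXD2. RNAs that are made without a polyA tail, such as 7SK and histone mRNAs, summed to 68.8 and 71.2 against 282.7 and 186.6 CPM, and mitochondrial mRNAs held 6.79% and 6.80% against 8.17% and 8.62% of counts. The part of these shares in the levels of LINC genes was not tested. At least 1 count was seen for 375 and 385 LINC genes with empty vector, against 445 and 420 with FOXD2.

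**Figure D1:**
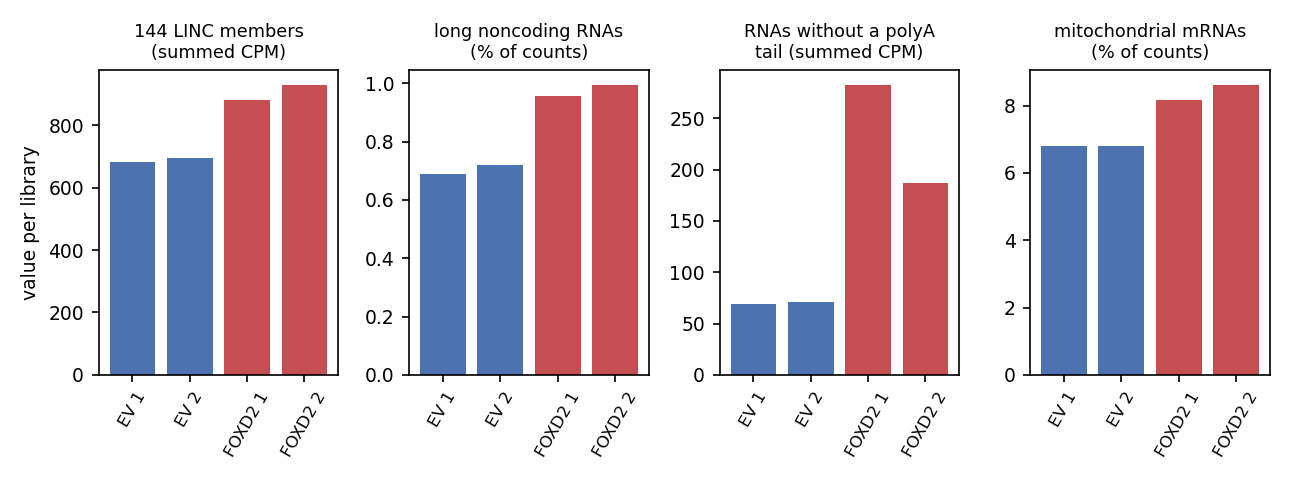
Bars give, for each library (EV, empty vector), the summed CPM of the 144 LINC genes, the percent of counts in all long noncoding RNAs, the summed CPM of RNAs made without a polyA tail and the percent of counts in mitochondrial mRNAs. Both FOXD2 libraries lie above both empty vector libraries in all 4 panels, and for RNAs without a polyA tail FOXD2 replicate 1 (282.7 CPM) lies well above replicate 2 (186.6 CPM).

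Among the 105 genes with at least 10 counts in all 4 libraries, which did not depend on one group for their selection, rises outnumbered falls. In the FOXD2 libraries 27 were higher and 6 lower (edgeR adjusted p under 0.05 over 14470 tested genes), and 72 did not pass. Of all 13382 genes with at least 10 counts in all 4 libraries, 26.6% were higher and 27.8% lower, so the LINC share of rises (25.7%) was near the background and the share of falls (5.71%) was below it. LINC genes are low, with a median of 3.24 CPM against 29.4 CPM for those genes. Of the 3410 genes in that background with a mean under 10 CPM, 25% were higher and 10.2% lower, beside 19 and 5 of 85 LINC genes at that level. Of the 20 LINC genes above it, 8 were higher and 1 lower, beside the 26.6% and 27.8% of the 13382 genes of any level. Those 13382 include the 3410 low-level genes, so this background is not matched for level. With DESeq2, 11 of the 105 were higher and 2 lower, against 16.7% and 20.8% of the 13382 genes. Over all tested genes of any level, 27.2% were higher and 26.4% lower by edgeR.

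The median log2 fold change of the 105 genes was 0.23, with quartiles of -0.10 and 0.62, against a median of -0.0076 over all 13382 genes and 0.17 over the low-level ones. All 27 rises and all 6 falls had groups that did not overlap in CPM. Without regard to the test, 49 of the 105 lay higher with no overlap and 21 lower, against 37.8% and 38.8% of the 13382 genes. Rises ranged from 1.30-fold to 4.32-fold and falls from 1.23-fold to 2.74-fold, with 13 rises and 2 falls of at least 2-fold. Of the 13382 genes, 816 rose and 309 fell by at least 2-fold, and of the 3410 low-level ones 395 and 112. Of the 72 genes that did not pass, 28 had a 95% interval of the log2 fold change that reached 1 or -1, so a difference of 2-fold remained possible there. The 94 genes that overlap no protein-coding gene gave 26 rises and 4 falls, and the 80 for which no read was divided with another gene gave 21 and 3.

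**Figure D2:**
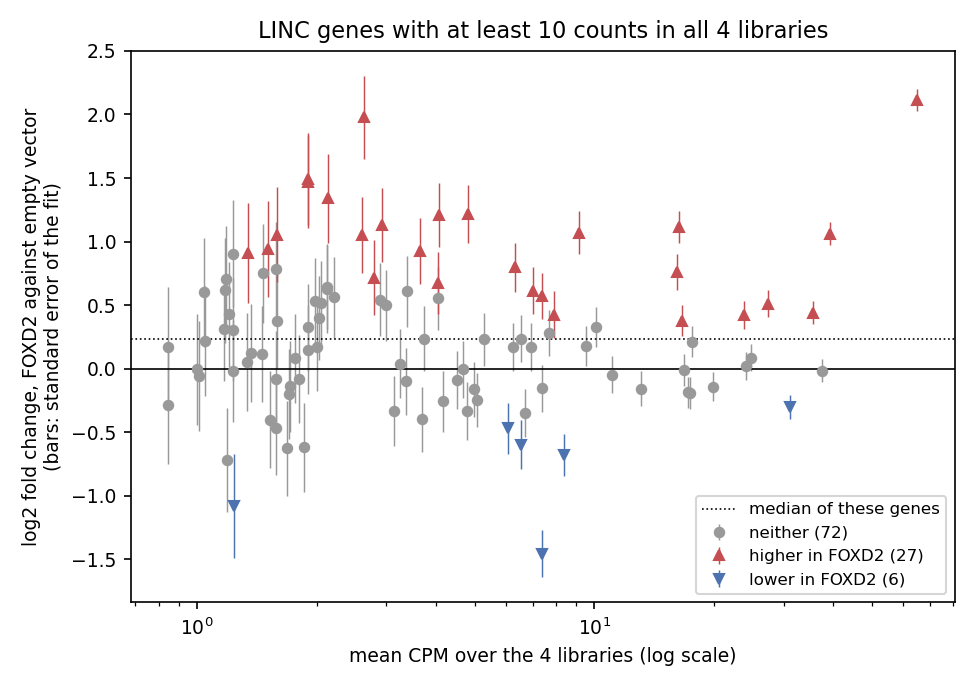
Each point is a LINC gene with at least 10 counts in all 4 libraries, with its mean CPM on a log axis against its log2 fold change; bars are the standard error of the fit and the dotted line is the median of 0.23. The 27 rises run from LINC00431 at 1.34 CPM to LINC03061 at the upper right, and the 6 falls lie below 0.

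LINC03061 was the most abundant of the 144 genes by CPM and rose most among those present in all libraries. It is a 2-exon lincRNA at chr13:109269634-109278512 (GRCh38, plus strand). It had 324 and 388 counts with empty vector and 1548 and 1643 with FOXD2, that is 24.4 ± 1.79 and 105.9 ± 9.06 CPM. The log2 fold change was 2.11 (SE 0.09, edgeR adjusted p = 5.3e-28). Both FOXD2 libraries exceeded both empty vector libraries about 4-fold. Its nearest protein-coding gene MYO16, 61.6 kb away, was too low to be tested.

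LINC00511, a multi-exon RNA that is widely studied as a growth-promoting transcript in carcinomas, lies at chr17:72290091-72640472 on the minus strand. It had 356 and 382 counts in empty vector cells and 839 and 764 in FOXD2 cells, or 25.4 ± 0.112 and 53.1 ± 1.2 CPM. The log2 fold change was 1.06 (SE 0.09, edgeR adjusted p = 4.4e-15). Per length it had a mean of 19.5 TPM in empty vector and 42.9 TPM in FOXD2 cells. SLC39A11, a zinc transporter gene that ends 5476 bases away on the same strand, rose by less (34.8 ± 1.18 to 59.1 ± 1.97 CPM, log2 fold change 0.76).

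LINC00857, also studied in carcinomas, starts 2138 bases from the start of ANXA11 on the opposite strand, at chr10:80207710-80219657. Its counts were 142 and 158 against 329 and 345 (10.3 ± 0.219 and 22.4 ± 1.72 CPM), which is 1.11 on the log2 scale (SE 0.13, edgeR adjusted p = 1.2e-10). ANXA11, which encodes a calcium-dependent phospholipid-binding annexin, rose beside it from 203.4 ± 10.5 to 352.7 ± 12.5 CPM (0.79). Both members of this divergent pair therefore lay higher in both FOXD2 libraries.

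Further rises of at least 2-fold came from genes of low level. LINC02967, a single-exon lincRNA, had 14 and 17 counts against 81 and 47 (log2 fold change 1.98, SE 0.33, edgeR adjusted p = 8.8e-07). LINC00659, antisense in class, had 11 and 18 against 44 and 41 (1.49, SE 0.36). LINC02980, which begins 1435 bases beyond the end of TRIM38 on the same strand, had 18 and 11 against 39 and 45 (1.47, SE 0.37). In each of these 3 the groups were apart, with few counts behind the empty vector values. LINC02980 lost its call with DESeq2 (adjusted p = 0.052). LINC01003, which lies 27.8 kb from KMT2C in divergent orientation, had 23 and 12 against 54 and 39 (1.34, SE 0.35); its adjusted p was 0.070 with DESeq2 and 0.059 without empty vector replicate 2.

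Several rises lay between the large and the small. LINC01547, which starts 97 bases from SLX9 on the other strand, had 42 and 42 counts against 97 and 106 (log2 fold change 1.22, SE 0.23, edgeR adjusted p = 8.4e-06), while SLX9 was not called. LINC00173 had 40 and 31 against 86 and 85 (1.21, SE 0.25), and lost its call on the TPM scale (limma adjusted p = 0.073 with a pseudocount of 1). LINC01001 had 86.8 and 84.1 against 168.8 and 204.1 (1.07, SE 0.17); RSEM divided reads between it and other genes, with a posterior SD of up to 7.54% of the count, so its value is uncertain. Of the 13 genes with a posterior SD of at least 5%, 6 were called higher and 0 lower. LINC00431 and LINC01347, classed as transcribed unprocessed pseudogenes, are among the 6, with a posterior SD of up to 7.37% and 9.60% of the count. Of all tested genes, 27.2% were higher and 26.4% lower. Of the 13, 0 were lower with edgeR at an unadjusted p under 0.05 or with DESeq2. The 6 rises include LINC02193 and LINC02887, which met the count rule through the FOXD2 libraries only, so the rule fixed their direction. These counts are therefore given as a description.

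Of a list of 27 LINC genes known from studies of tumours, 23 were in the tables and 11 were tested; 5 were higher, none was lower and 6 did not pass, beside 26.6% higher and 27.8% lower of all genes with at least 10 counts in all 4 libraries. With edgeR at an unadjusted p under 0.05, and with DESeq2, the count of lower genes in this list was also 0. LINC00511 and LINC00857 were the largest rises. LINC00920 had 35 and 38 counts against 66 and 78 (log2 fold change 0.93, SE 0.26), with an adjusted p of 0.087 by DESeq2 and 0.050 without FOXD2 replicate 2. LINC00963, one of the more abundant, had 420 and 460 against 618 and 622 (0.44, SE 0.09, edgeR adjusted p = 5.0e-05), and was not called on log2(TPM + 1) (limma adjusted p = 0.060). LINC00460 had 38 and 53 against 87 and 64 (0.67, SE 0.25); its adjusted p was 0.22 by DESeq2, 0.21 without FOXD2 replicate 1 and 0.17 without empty vector replicate 1. LINC01234, another abundant gene of the set, had 510 and 589 against 553 and 573 counts, which overlap (-0.02, SE 0.09). LINC00839, LINC00467 and LINC00662 also did not pass, with log2 fold changes of -0.01, -0.16 and 0.21. LINC01503 and LINC02323 had 33 and 55 counts in FOXD2 replicate 1 but 16 and 24 in replicate 2, and passed the test with replicate 2 left out (adjusted p = 0.028 and 0.012).

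LINC02331 was the largest of the 6 falls. It is a lincRNA at chr14:53768942-53850882 on the minus strand, with 144 and 171 counts in empty vector cells and 58 and 61 in FOXD2 cells (10.8 ± 0.727 and 3.95 ± 0.313 CPM), or -1.45 on the log2 scale (SE 0.19, edgeR adjusted p = 2.0e-09). Both FOXD2 libraries lay far below both empty vector libraries. BMP4, a signalling ligand gene and its nearest protein-coding neighbour at a gap of 98.9 kb, was not called (0.07, SE 0.07). LINC00623 had 137 and 163.9 counts against 100.8 and 94.0 (-0.68, SE 0.17, edgeR adjusted p = 0.00053). RSEM divided some of its reads with other genes, with a posterior SD of up to 4.75% of the count.

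The other 4 falls were less firm. LINC02210 had the highest mean TPM over the 4 libraries, 39.1 in empty vector and 29.2 in FOXD2 cells, where LINC00511, LINC03061 and LINC01234 lay above it. It had 489.9 and 506.7 counts against 426.9 and 414.8 (log2 fold change -0.30, SE 0.10). Its adjusted p was 0.088 by DESeq2 and 0.078 without empty vector replicate 1, and the readthrough gene LINC02210-CRHR1 overlaps it on the same strand. LINC00339 had 99.7 and 130 counts against 94 and 64 (-0.60, SE 0.19), and LINC01270 had 100 and 104 against 65 and 88 (-0.47, SE 0.20). LINC00339 overlaps the annotated protein-coding gene AL031281.2 on the same strand. The adjusted p of LINC00339 was 0.15 by DESeq2, 0.13 without FOXD2 replicate 2 and 0.14 without empty vector replicate 2. That of LINC01270 was 0.30 by DESeq2, 0.43 without FOXD2 replicate 1, 0.15 without empty vector replicate 1 and 0.11 without empty vector replicate 2. LINC02008 had 25 and 24 counts against 14 and 10 (-1.08, SE 0.41), and its adjusted p was 0.26 by DESeq2 and between 0.056 and 0.17 with any 1 library left out.

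**Figure D3:**
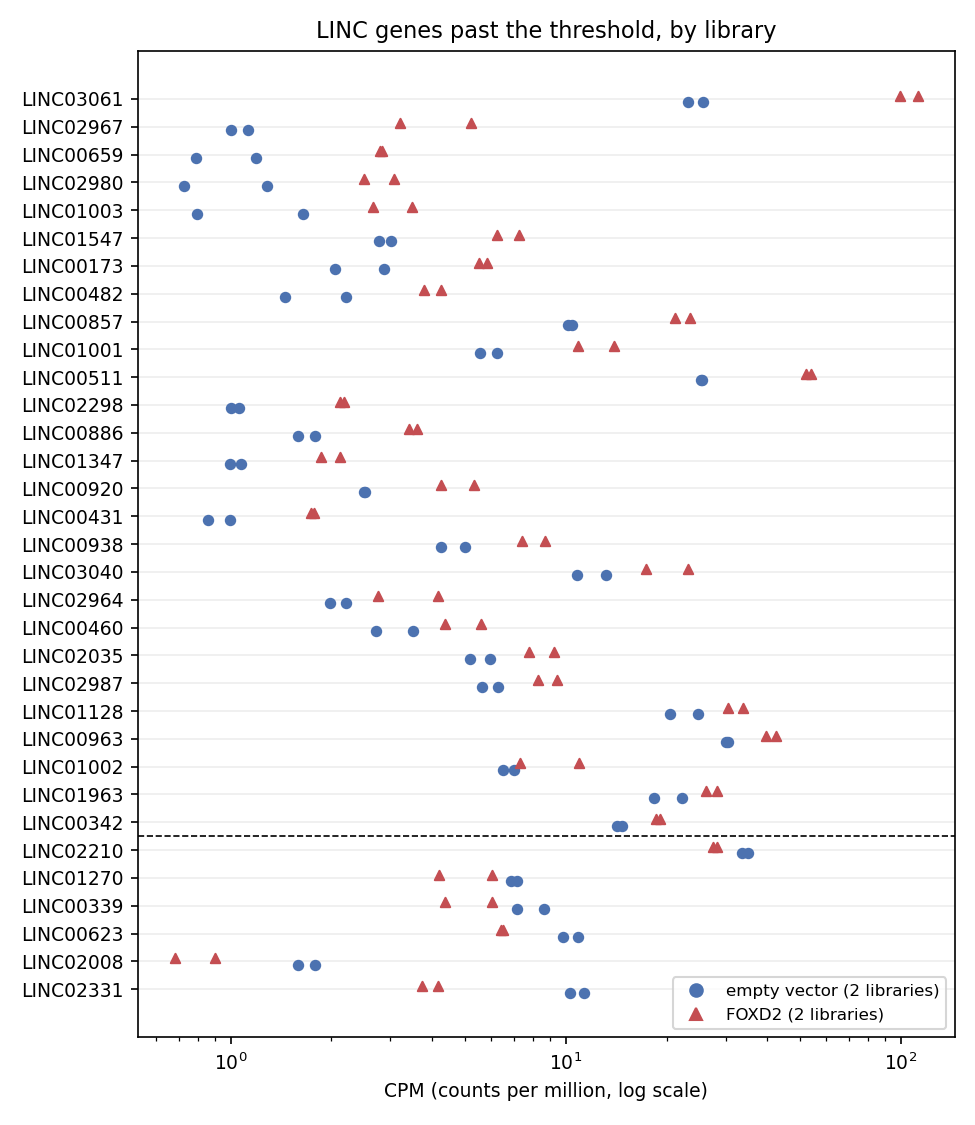
Each row is a LINC gene past the threshold with at least 10 counts in all 4 libraries, and points are its CPM in each library on a log axis (circles, empty vector; triangles, FOXD2). The 27 rises are above the dashed line and the 6 falls below it, and in every row the groups are apart, widely for LINC03061 and LINC02331 and narrowly for LINC01002.

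The 39 genes that met the rule in 1 group only are described without a test. The rule itself asks for a higher count in that group. Their ratios and intervals come from the counts that the rule used, so an interval that leaves out 1 supports no rise or fall. Of all genes of any kind, 722 met the count limit through the FOXD2 libraries only and 291 through the empty vector libraries only, beside 29 and 10 LINC genes. LINC02982 had 5 and 1 counts in empty vector cells and 49 and 70 in FOXD2 cells, which is a 19.97-fold ratio (95% interval 8.91 to 55.5, counting error only). LINC02593 had 5 and 14 against 95 and 119, a ratio of 11.3 (7.09 to 19.2). These 2 had the most counts of the 29, and their groups were far apart.

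For the 4 genes with 3 or fewer counts over both empty vector libraries, the intervals were wide. LINC01135 had 2 and 0 counts against 10 and 18, a ratio of 14.1 (interval 3.56 to 122.1). LINC02026 had 1 and 1 against 10 and 14 (12.1, 3.0 to 105.5), and LINC00887, whose promoter is given above, had 0 and 3 against 20 and 14 (11.4, 3.59 to 58.1). LINC03026 had no count in empty vector cells and 16 and 11 in FOXD2 cells, and the lower end of its interval was 6.88. Against a limit of 3 counts over the group its ratio was 9.06, which leaves out the counting error of the FOXD2 libraries. LINC00592, above that limit, had 2 and 3 counts against 21 and 13, a ratio of 6.85 (2.66 to 22.4).

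In the other direction, LINC00973 had 20 and 15 counts in empty vector cells and only 1 and 4 with FOXD2, giving a ratio of empty vector to FOXD2 of 6.95 (interval 2.71 to 22.7). LINC02454 had 14 and 21 against 4 and 2 (5.79, 2.41 to 16.8). LINC02709 had 27 and 23 against 6 and 9 (3.31, 1.83 to 6.35), and LINC01521 had 25 and 22 against 6 and 11 (2.75, 1.55 to 5.10). At the other end of the 39, LINC00992 had a ratio of 1.10 (0.56 to 2.16) and LINC01842 of 1.22 (0.68 to 2.18).

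**Figure D4:**
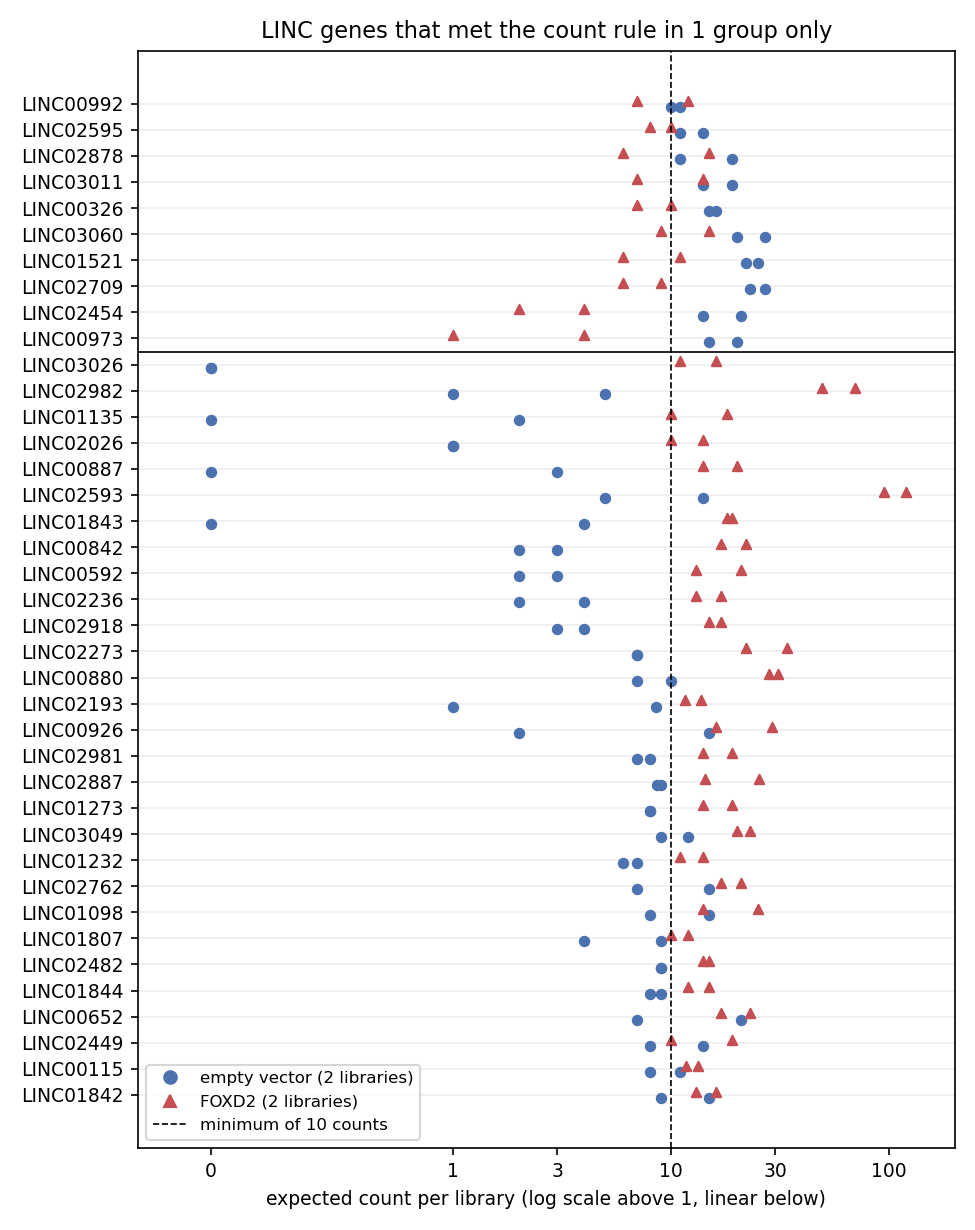
Each row is one of the 39 LINC genes that met the count rule in 1 group only, with its expected count in each library on an axis that is logarithmic above 1 and linear below (circles, empty vector; triangles, FOXD2; dashed line, the minimum of 10). Genes above the horizontal line qualified through empty vector and those below it through FOXD2; the topmost of the latter, LINC03026 to LINC00887, have 6 or fewer counts over both empty vector libraries.

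Position was not used by the rule. Each gene was therefore set beside its nearest protein-coding gene among the counted genes (GENCODE 29 positions, median gap 18.7 kb). For the genes present in all 4 libraries, 78 of 104 neighbours were tested, of which 17 (21.8%) were higher and 23 (29.5%) lower, beside 27.7% and 29% of all 12696 tested protein-coding genes. Among called pairs, 6 rose together, 0 fell together and 6 LINC rises lay next to a gene that fell. Of the 6 LINC falls, 3 had a tested neighbour (BMP4, CEBPB and GBE1), so at most 3 pairs could have fallen together; the number was also 0 with edgeR at an unadjusted p under 0.05 and with DESeq2. Across these 78 pairs the log2 fold changes had a Pearson r of -0.01 and a Spearman rho of 0.08, a description over genes that share the same libraries. The pairs that rose together included LINC00511 with SLC39A11, LINC00857 with ANXA11, LINC02980 with TRIM38 (0.84), LINC01003 with KMT2C (0.59) and LINC01128 with SAMD11 (1.72). LINC01128 itself lay 0.51 higher on the log2 scale (SE 0.11) and was not called on log2(TPM + 1) (limma adjusted p = 0.086). Opposite pairs included LINC00460, which rose, and the ephrin gene EFNB2, which fell from 55.5 ± 1.46 to 24.8 ± 0.603 CPM. LINC00938, a single-exon RNA that starts 1890 bases from ARID2, rose by 0.80 on the log2 scale while ARID2 fell by 0.22, and both calls were lost with DESeq2 (adjusted p = 0.050 and 0.11).

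For genes that met the rule in one group only, the rule fixes the direction of the LINC gene, so the calls of their neighbours are given as a description and support nothing about the pairs. Over all tested protein-coding genes 27.7% were higher and 29% lower. Of 22 tested neighbours of genes found through the FOXD2 libraries, 11 were higher, 2 lower and 9 neither (SAMD11 stands beside 2 of these genes), and of 9 of genes found through the empty vector libraries none was higher, 6 were lower and 3 neither. Of those 9, edgeR placed 1 higher at an unadjusted p under 0.05 and DESeq2 called 0 higher. LINC01135 starts 801 bases from JUN, the AP-1 subunit, on the other strand, and JUN rose from 15.1 ± 0.627 to 198.3 ± 7.74 CPM, a log2 difference of 3.71 (SE 0.08, edgeR adjusted p = 2.2e-40). LINC02026 lies 132.5 kb from HES1, a transcriptional repressor induced by Notch signalling, which rose from 23.4 ± 0.577 to 150.7 ± 2.50 CPM (2.68, SE 0.08, edgeR adjusted p = 1.2e-34). LINC02593 starts 2912 bases from SAMD11, which rose by 1.72, and LINC02982 lies 11.5 kb from NKD2, an inhibitor of Wnt signalling, which rose by 0.63. LINC02918 starts 388 bases from the importin gene IPO13 (0.86). LINC00592 overlaps the keratin gene KRT80 on the opposite strand, and KRT80 rose by 4.51. RSEM divided none of the LINC00592 reads with another gene (posterior SD 0). The strand setting of the counting is not stated, so the strand these reads came from remains uncertain. LINC00926, with 2 and 15 counts against 16 and 29, stands beside TCF12, which fell by 0.46 on the log2 scale.

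On the side of empty vector, LINC00973 lies 79.4 kb from DCBLD2, a transmembrane receptor gene, in divergent orientation. DCBLD2 fell from 890.4 ± 45.6 to 172.5 ± 7.52 CPM, a log2 difference of -2.37 (SE 0.06, edgeR adjusted p = 1.8e-38). MSRB3, the methionine sulfoxide reductase gene next to LINC02454, fell by 1.46 on the log2 scale, SWAP70 next to LINC02709 by 0.42 (not called on log2(TPM + 1), limma adjusted p = 0.091), and PATZ1, which starts 545 bases from LINC01521, by 0.42. AKR1B1, the aldose reductase gene, lies next to LINC03060 and fell by 0.65.

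**Figure D5:**
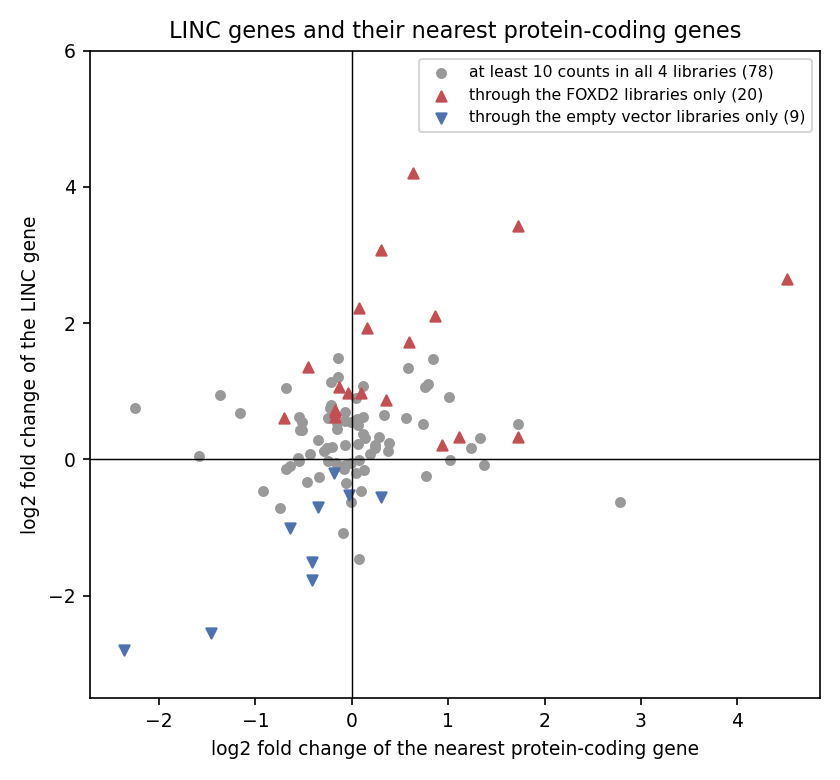
Each point is a LINC gene with its log2 fold change on the vertical axis and that of its nearest protein-coding gene on the horizontal axis, for the 107 pairs in which both were tested. The 78 genes present in all 4 libraries (grey circles) show no common slope (r of -0.01), while those found in one group only (triangles) sit above or below 0 by the rule itself.

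Other long noncoding RNAs, listed by symbol, also rose more often than they fell, as did low-level genes of any kind. Counting the genes with at least 10 counts in all 4 libraries, 44 of 212 antisense RNAs were higher and 16 lower (median log2 fold change 0.19), and of 84 divergent transcripts 15 and 5 (0.13). The median levels of these 2 lists were 3.0 and 2.5 CPM. Of the 3410 genes with such counts and a mean under 10 CPM, 25% were higher and 10.2% lower. Of 22 host genes of small nucleolar RNAs, 11 were higher and 2 lower (0.27), and of 18 microRNA host genes 8 and 2 (0.09). All of these lists stand beside the 26.6% and 27.8% of all genes with at least 10 counts in all 4 libraries. Of 22 individually named RNAs that were tested, without that count limit, 11 were higher and 4 lower (0.41), beside 27.2% and 26.4% of all tested genes. MALAT1, an abundant nuclear RNA of splicing speckles, rose from 333.9 ± 45.7 to 1119 ± 50.9 CPM (1.74), NEAT1, the scaffold of paraspeckles, by 1.67, and KCNQ1OT1, an imprinted antisense RNA, by 1.63 on the log2 scale. KCNQ1OT1 was not called on log2(TPM + 1), where the difference was 0.09 (limma adjusted p = 0.64). Among host genes MIR22HG rose (2.23), whereas MIR100HG fell (-2.39). MIR31HG met the count limit with empty vector only, at 30 and 29 counts against 5 and 4 with FOXD2.

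Genes of the machinery that ends or degrades noncoding transcripts were lower or did not pass. Of 16 genes of the nuclear exosome and its NEXT and PAXT adaptors, 0 were higher and 9 lower (median log2 fold change -0.23), and of 14 Integrator subunits 0 and 6 (-0.14), beside 27.2% higher and 26.4% lower of all tested genes. No gene of either list was higher with edgeR at an unadjusted p under 0.05 or with DESeq2. The median levels of the 2 lists were 44.5 and 63.4 CPM, against 25.3 CPM for all tested genes, so this background is not matched for level. EXOSC3, a cap subunit of the exosome, went from 51.8 ± 0.500 to 31.5 ± 1.01 CPM (-0.71, SE 0.09, edgeR adjusted p = 5.6e-10), EXOSC7 fell by 0.70 and EXOSC8 by 0.58 on the log2 scale. INTS14 fell by 0.55 and INTS13 by 0.39. Whether these levels bear on those of LINC genes was not tested.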

How the data were processed

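The members and gene lists were chosen with earlier results of these data known. PolyA RNA from 4 libraries was sequenced after a strand-specific library preparation, per the labels' protocols. STAR 2.7.2b and RSEM 1.2.31 with GRCh38 are named in the submitters' processing notes; the annotation release and the strand setting of the counting are not given in the sources used here. The authors deposited, per the file headers, RSEM expected counts per gene, which divide reads shared between genes, with the posterior SD of each count and TPM. Symbols were found for 60370 of the 60683 identifiers, and positions and classes for 58496 in GENCODE 29. FPKM was not used here.

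Expected counts were rounded and fitted over all genes with edgeR 4.0.16 (R 4.3.3; TMM, filterByExpr, robust quasi-likelihood test, intercept and group, two-sided), with Benjamini-Hochberg adjustment over 14470 tested genes and a threshold of 0.05. LINC01135 and LINC02026 did not pass the filter, which left 142 members tested. CPM uses TMM-scaled library sizes and is given as mean ± SD (n = 2). Intervals of count ratios are exact at 95%, and a count of 0 allows up to 3 counts (0.193 to 0.211 CPM per library). Both cover counting error only, since reads that carry no molecular identifier can repeat a molecule. On simulated data with 14470 genes the same fit recovered 49.3%, 83.6% and 98.5% of genes changed 1.5-, 2- and 4-fold. The changed genes were drawn from a limited range of mean counts that left out the lowest, where part of the LINC genes lie, so recovery there was not measured. Chi-square per degree of freedom between replicates was 2.52 and 3.91, so no library was a repeat of another.

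Genes were picked for naming by rule: FOXD2, the 10 largest rises and falls (above a low limit of mean CPM) and the 5 smallest adjusted p-values of members in each direction with no overlap between groups, the 5 of highest TPM, the tested genes of the tumour list, members with 3 or fewer counts in the other group, neighbours of these and of the closest called pairs, and the 3 largest changes of each other list. Not every pick is described. LINC00880, LINC02273, INTS2, some neighbours and the picks of the antisense, divergent and small nucleolar RNA host lists are left out. Of those, LINC00880, INTS2, SNHG21 and TNKS2-DT lost their call under some alternatives. LINC01547, LINC00173, LINC01001, LINC01128, JUN, HES1, EFNB2, SLX9 and LINC01842 were named after their values were seen, as were the genes at the count limit. Alternatives were DESeq2 1.42.0, limma 3.58.1 (voom, and log2(TPM + 1) or log2(TPM + 0.1)), other scalings and filters, a replicate block, each library left out, and 4 subsets of members added after seeing the data.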

Additional observations from a re-analysis of the deposited data

How the results depend on the processing

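By DESeq2, 11 members with at least 10 counts in all 4 libraries were higher and 2 lower in place of 27 and 6. DESeq2 called 16.7% higher and 20.8% lower of all 13382 genes with such counts. With edgeR and a fold of at least 2, 13 of these members were higher and 2 lower, beside 816 and 309 of the 13382 genes. With limma on log2(TPM + 1) or log2(TPM + 0.1), 15 were higher. The class lincRNA alone gave 17 higher, and members with no shared reads 3 lower. With 1 library left out, 20 to 26 were higher and 3 to 5 lower; the count of 3 came without empty vector replicate 2. The median log2 fold change of 0.23 was 0.30 without TMM, 0.16 on log2(TPM + 1), and 0.16 to 0.29 with 1 library left out. The difference in summed level of 216.2 CPM was 112.1 in TPM and 134.8 without LINC03061. The 7 opposite pairs of neighbours, counted over all members, became 3 to 7 with 1 library left out, with 3 without FOXD2 replicate 2 or empty vector replicate 1 and 4 without empty vector replicate 2. The cause of these shifts was not tested. For limma, for the replicate block and with 1 library left out, the share of all genes called is not given. Counts of called members under those settings are therefore a description only.

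The edgeR calls over all 142 tested members, 41 higher and 11 lower, include 14 and 5 of genes that met the rule in one group only, whose direction the rule fixed. They are given for completeness and support nothing: 20 and 4 by DESeq2, 27 and 7 with edgeR and a fold of at least 2, 31 to 40 and 7 to 10 with 1 library left out (7 lower without FOXD2 replicate 1 or either empty vector replicate), and 37 and 9 with the replicate number as a block.

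Of 286 values of the 22 named and called members with at least 10 counts in all 4 libraries, under alternatives, 240 kept the call, 46 kept the direction only and 0 turned, and 9 of these members kept their call under every alternative run. Signs turned only for genes that were not called. LINC00839 was at 0.0593 without TMM, 0.0888 on log2(TPM + 0.1) and 0.0779 on log2(TPM + 1), and between -0.14 and 0.14 with 1 library left out. LINC01234 was at 0.0484, 0.0770 and 0.0746 under the same settings, and between -0.0893 and 0.0445 with 1 library left out. Without FOXD2 replicate 1, BMP4 was at -0.0336 and LINC02323 at -0.0416, in a range of -0.0336 to 0.16 and of -0.0416 to 1.07 over the libraries left out.

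With the replicate number as a block, 24 members in all 4 libraries were higher and 5 lower. The deviations of libraries with the same number correlated at r = -0.10 over 14470 genes, so the numbers were not taken as pairs. At this depth the SE of members that did not pass had a median of 0.33.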
